A study of Mus musculus with 16 samples.

Results

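T cell receptor signalling was followed through 41 genes that encode the receptor's signal-carrying chains, its coreceptor and the kinases, adaptors, effectors and brakes that act behind it. The genes were chosen by symbol for their known roles, with earlier results of these data in view, and all 41 were found among the 19540 genes of the deposited table. All 41 also passed the filter on low values (a normalised value of at least 10 in at least 3 libraries), as did 14319 genes in all. The cells were 2 kinds of T cell sorted from visceral adipose tissue of mice, the fat around the inner organs: regulatory T cells (Treg), a Foxp3-expressing lineage that holds immune responses in check, and conventional T cells (Tconv). The libraries fell into 4 groups: Treg WT (3 libraries), Treg KO (4), Tconv WT (4) and Tconv KO (5).

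All mice were C57BL/6JRcc, 12 weeks old, and the labels give 1 line for all 16 libraries, a floxed Hpgd allele with Foxp3-YFP-Cre. Hpgd encodes the enzyme that starts the breakdown of prostaglandin E2. The Cre is driven by Foxp3, so the deletion is aimed at Treg, and KO after Tconv names the mouse the cells came from. Whether a mouse was WT or KO stands only in the sample titles, so the alleles of the WT mice are not known from the sources used here. The labels name neither the sorting markers nor the animal behind a library, so p-values measure the spread between these libraries.

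The libraries were made from full-length cDNA without strand information (SMART-seq2). A deposited value is a gene's reads divided by the library's size factor, plus 1, so a gene without reads is listed at 1. Depth was 3.39 to 9.26 M reads in 15 libraries and 56.7 M in Tconv KO 3. Libraries of 1 group correlated across genes with r between 0.828 and 0.917. Foxp3 was between 279 and 616 in the 7 Treg libraries and at most 39.3 in Tconv. Hpgd was 73.1, 56.0 and 4.31 in Treg WT and 3.41, 2.54, 2.42 and 1.00 in Treg KO, so the library labelled Treg WT 3 held 3 Hpgd reads and lay close to the Treg KO libraries. A further 3 libraries, all Tconv, stood apart: Tconv WT 1 held the neutrophil gene S100a8 at 10195, Tconv WT 3 held the globin transcript of Hba-a1 at 37008, and Tconv KO 3 was the deepest. These 3 also held Il5 at 599.7, 426 and 940.4, Il1rl1 at 1566, 1746 and 2548 and Il2ra at 588, 729 and 1299, against at most 52.4, 201 and 86.2 in the other Tconv libraries. Among Treg WT, Treg WT 2 stood apart with Il1rl1 at 1725 and Areg at 844, where the other 2 libraries held 12534 and 14889 of Il1rl1 and 4869.8 and 4187 of Areg. It also had the lowest Ubash3b and the highest Txk, Themis, Trat1 and Grap2 of its group. For the genes named here, a call that was lost without Treg WT 2, without Treg WT 3 or without the 3 Tconv libraries is given with both adjusted p-values.

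When the receptor meets its antigen, the kinase Lck, carried by the Cd4 coreceptor, phosphorylates the CD3 and zeta chains, and Zap70 docks there and phosphorylates the membrane adaptor Lat. Lat gathers Lcp2, Grap2 and phospholipase C gamma, and the Tec kinases activate the phospholipase, which opens the calcium-NFAT, Ras and NF-kappa B branches. Phosphatases, lipid kinases and ubiquitin ligases set the threshold of the pathway. Treg need receptor signals for their function, and those of visceral fat are known for carrying a restricted, antigen-selected receptor repertoire.

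Of the 41 genes, 9 were lower and 2 higher in Treg WT than in Tconv WT, and 30 did not pass the test (limma, adjusted p under 0.05). Over all 14319 genes, 1.98% were lower and 2.2% higher in that comparison, 4.18% together. Between Treg KO and Tconv KO, 13 of the 41 genes were lower and 2 higher, where 2.65% of all genes were lower and 4.16% higher, 6.81% together. Taken by their values alone, 13 of the 41 genes had all Treg libraries below all Tconv libraries in WT mice and 2 had them above, against 6.1% and 5.87% of all genes, and the counts in KO mice were also 13 and 2, against 4.66% and 6%. The median log2 difference of the 41 genes was -0.46 in WT and -0.38 in KO mice, against -0.00 and 0.04 over all genes tested. In WT mice 34 of the 41 differences were negative, and in KO mice 32. The 2 comparisons have no library in common and share only the estimate of the spread: 7 genes were lower in both (Themis, Txk, Trat1, Grap2, Lck, Lat and Prkcq) and 2 were higher in both (Ubash3b and Cd2). That is 17.1% and 4.88% of the 41 genes, against 1.21% and 1.66% of all genes tested. A further 8 genes passed in 1 genotype alone, and 24 passed in neither. In bulk libraries, fewer cells that express a gene and less RNA per cell cannot be told apart.

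**Figure D1:**
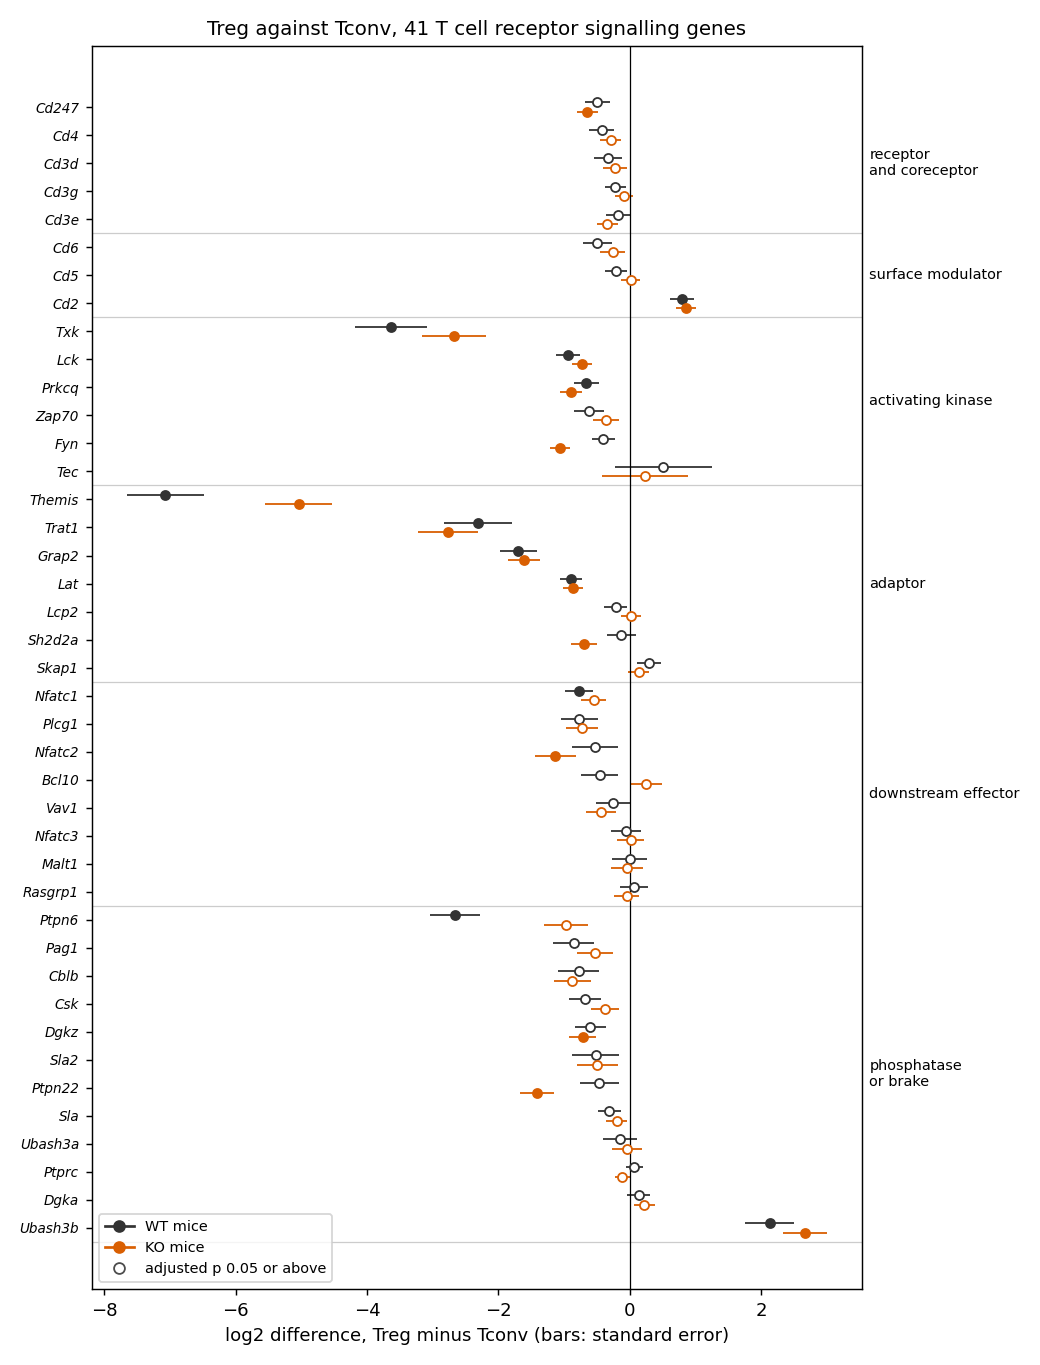
Log2 difference between Treg and Tconv (horizontal axis) for each of the 41 genes, grouped by role, in WT mice (black) and KO mice (orange). Points are limma estimates, bars their standard errors, and filled points have an adjusted p under 0.05; kinases and adaptors hold 7 of the 9 lower calls in WT and 9 of the 13 in KO mice.

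The 5 receptor and coreceptor genes all had negative estimates in both genotypes, with a median log2 difference of -0.33 in WT and -0.29 in KO mice. Of the 5, 1 passed, and in KO mice alone. Cd3d, Cd3e and Cd3g, the delta, epsilon and gamma chains of CD3, and Cd4, the coreceptor that binds MHC class II, passed in neither comparison. Cd247, the zeta chain that carries most of the phosphorylated motifs, was lower in Treg KO than in Tconv KO. It measured 3305, 2649.7, 1798 and 2387 in Treg KO and 3799, 4106, 3932, 3586 and 3984 in Tconv KO. The groups did not overlap, and the log2 difference was -0.65 ± 0.16 (SE, adjusted p = 0.0184). In WT mice Cd247 was 2443, 3303 and 2917 in Treg and 4667, 4097, 3409 and 4055 in Tconv, also without overlap, with a difference of -0.49 ± 0.19 (SE) and an adjusted p of 0.168. Without Treg KO 3 the adjusted p in KO mice was 0.0938, and without Treg KO 4 it was 0.0553. Over all 16 libraries the highest value of Cd3g was 1.55 times the lowest, that of Cd3e 1.78 times, of Cd4 2.06 times, of Cd3d 2.15 times and of Cd247 2.60 times.

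Levels of different genes were compared per kilobase of the longest coding transcript. On that scale Cd3g was the highest of the 5 in all groups, at 4784 ± 548 (SD, n = 3) in Treg WT and 5581 ± 526 (SD, n = 4) in Tconv WT. Cd3d followed with 2130 ± 524 (SD, n = 3) in Treg WT, then Cd4 with 1495 ± 243, Cd3e with 1199 ± 209 and Cd247 with 976 ± 146. In Treg WT the ranges of Cd3e (1017 to 1427) and Cd247 (826 to 1117) overlapped, as did those of Cd4 (1241 to 1725) and Cd3e. The T cell receptor constant-region genes Trac, Trbc1 and Trbc2 have no row in the table used here.

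**Figure D2:**
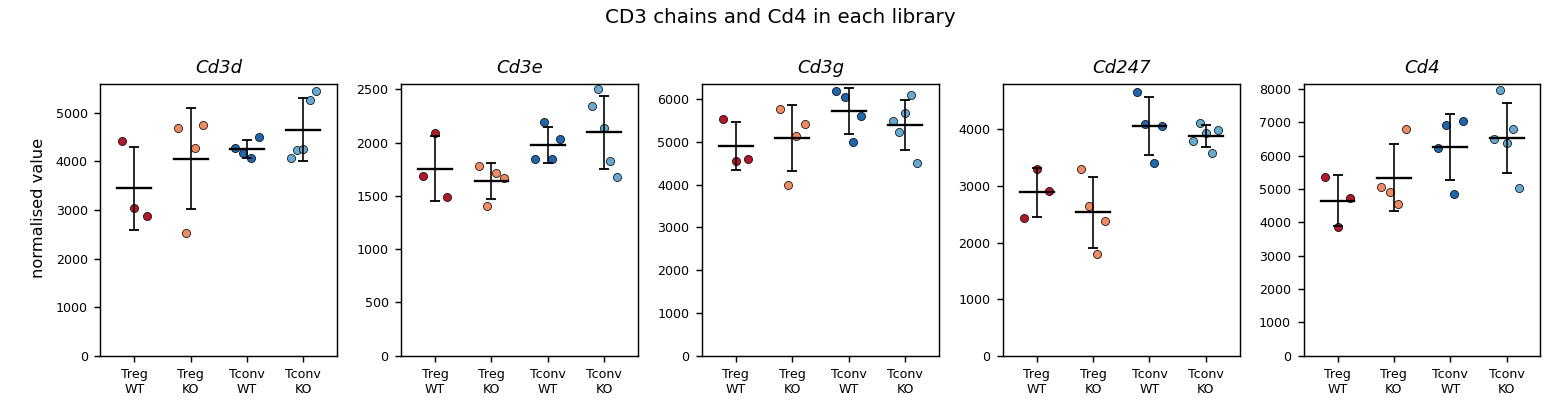
Normalised value (vertical axis, from 0) of the CD3 chains and Cd4 in each of the 16 libraries, by group. Points are libraries, lines means and bars 1 SD; the groups overlap for Cd3d, Cd3e, Cd3g and Cd4, while each Treg library lies below the Tconv libraries of its genotype for Cd247.

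Among the surface proteins that modulate the receptor, Cd2, an adhesion and costimulatory receptor for CD48 in the mouse, was higher in Treg. It was 9894, 10792 and 13259 in Treg WT against 6375, 5907, 5917 and 7889 in Tconv WT. In KO mice it was 11998, 10854, 8940.1 and 15939.7 in Treg against 6311, 6178, 6155, 7273 and 6446 in Tconv. All 7 Treg libraries lay above all 9 Tconv libraries. After the added 1 is taken off, the Treg mean was 1.73 times the Tconv mean in WT and 1.84 times in KO mice. The log2 differences were 0.79 ± 0.18 (SE, adjusted p = 0.0124) and 0.85 ± 0.16 (SE, adjusted p = 0.00143). Without Treg WT 3 the adjusted p in WT mice was 0.0856, and with all 3 Tconv libraries that stood apart left out it was 0.103. Cd5 and Cd6, scavenger-receptor family proteins that dampen receptor signals, passed in neither comparison, with log2 differences of -0.20 and 0.01 for Cd5 and of -0.49 and -0.26 for Cd6.

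Kinases that start and pass on the signal were lower in Treg for 3 of 6 genes in WT mice and for 4 of 6 in KO mice, and none was higher. Lck, the Src-family kinase that fires first, was 7092, 5587 and 4497 in Treg WT and 10661, 11193, 10216 and 11255 in Tconv WT. In KO mice it was 8502, 6975, 5826 and 7188 in Treg and 11929.7, 15683, 10119, 10775 and 10798 in Tconv. All Treg libraries were below all Tconv libraries, and the Treg mean was 52.9% of the Tconv mean in WT and 60.0% in KO mice. On the log2 scale the differences were -0.94 ± 0.18 (SE, adjusted p = 0.00378) and -0.73 ± 0.16 (SE, adjusted p = 0.00561).

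Txk, a Tec-family kinase that lacks the lipid-binding domain of its relatives and phosphorylates phospholipase C gamma, showed a larger difference from a low level. It was 14.7, 80.4 and 19.7 in Treg WT, and 387, 366, 302 and 429.9 in Tconv WT. In KO mice the Treg values were 62.5, 185, 54.8 and 128, and the Tconv values 529, 645, 305, 888 and 948. No Treg library reached a Tconv library of either genotype. Treg held 10.1% of the Tconv mean in WT and 16.1% in KO mice. The log2 differences were -3.63 ± 0.55 (SE, adjusted p = 0.000503) and -2.68 ± 0.48 (SE, adjusted p = 0.00131). Its relative Tec passed in neither comparison, with log2 differences of 0.51 ± 0.74 and 0.23 ± 0.65 (SE).

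Prkcq, protein kinase C theta, which leads to NF-kappa B, was 1676, 1085 and 1209 in Treg WT and 1698, 2029, 2372 and 2185 in Tconv WT, where the highest Treg and the lowest Tconv library nearly met. It was 1288, 1013, 1016 and 1049.9 in Treg KO and 1971, 2044, 2034, 1897 and 2169 in Tconv KO, well apart. Expressed as log2, the differences were -0.66 ± 0.19 (SE, adjusted p = 0.0492) and -0.89 ± 0.16 (SE, adjusted p = 0.00142). In WT mice the call was lost in 10 of 16 alternative analyses, with adjusted p-values up to 0.172, among them the analyses without Treg WT 2 (0.172), Treg WT 3 (0.165), Tconv WT 2 (0.0886), Tconv WT 3 (0.116) or Tconv WT 4 (0.109), or without the 3 Tconv libraries that stood apart (0.11). Fyn, the other Src-family kinase, was 1515, 1371, 1292 and 1837 in Treg KO against 2645, 3773, 2666, 3466 and 3133 in Tconv KO, a log2 difference of -1.06 ± 0.15 (SE, adjusted p = 0.000174). In WT mice it was 1765, 1743 and 1828 in Treg and 2598, 2402, 2081 and 2349 in Tconv, also without overlap, a difference of -0.40 ± 0.18 (SE) with an adjusted p of 0.253. The difference between the 2 comparisons was itself not past the threshold (-0.66 ± 0.23, SE, adjusted p = 0.928). Zap70 had log2 differences of -0.62 in WT and -0.36 in KO mice, with adjusted p-values of 0.149 and 0.367.

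Adaptors were the role with the most calls: 4 of 7 were lower in Treg WT and 5 of 7 in Treg KO, and none was higher. Themis, a thymocyte-enriched protein that binds Grb2 and the phosphatase Ptpn6 and tunes receptor signals during selection, had the largest difference of the 41 genes in either direction. It was 6.48, 13.2 and 7.62 in Treg WT (6 to 14 reads) and 1072, 1192, 1579 and 1449.8 in Tconv WT. In KO mice it was 32.3, 115, 8.08 and 77.9 in Treg, and 1806, 1336, 1078, 1324 and 1271 in Tconv. The Tconv libraries lay within 1072 to 1806, while the Treg libraries ran from 6.48 to 115. The Treg mean was 0.613% of the Tconv mean in WT and 4.20% in KO mice. The log2 differences were -7.07 ± 0.59 (SE, adjusted p = 6.89e-07) and -5.04 ± 0.51 (SE, adjusted p = 4.49e-06), and both passed under every alternative analysis run.

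Trat1, a transmembrane adaptor that associates with the receptor complex, was 48.5, 256 and 177 in Treg WT and 1179, 494, 696 and 446 in Tconv WT. It was 48.0, 208, 155 and 91.5 in Treg KO and 799, 961, 578, 624 and 863 in Tconv KO. The highest Treg library, at 256, lay below the lowest Tconv library, at 446. The limma fit put the log2 differences at -2.31 ± 0.52 (SE, adjusted p = 0.0137) and -2.77 ± 0.46 (SE, adjusted p = 0.000585). In WT mice the adjusted p was 0.0808 without Treg WT 1 and 0.13 with those 3 Tconv libraries left out.

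Grap2 (Gads), which links Lcp2 to Lat, was 230.1, 399.7 and 237 in Treg WT and 688, 780.4, 1243 and 1014 in Tconv WT. Its values were 348, 319, 225 and 367 in Treg KO and 908, 1099.6, 1148, 890.5 and 763 in Tconv KO. The Treg mean was 31.0% of the Tconv mean in WT and 32.6% in KO mice, with all Treg libraries below all Tconv libraries. The log2 differences were -1.70 ± 0.28 (SE, adjusted p = 0.00117) and -1.62 ± 0.24 (SE, adjusted p = 0.000253).

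Lat, the membrane scaffold to which Grap2 binds, was 2689, 2392 and 3315 in Treg WT and 4270.2, 5187, 6119 and 5259 in Tconv WT. In KO mice Treg had 3322, 2905, 2809 and 3939, and Tconv 6159, 6395, 6253, 5372 and 5279. Again no Treg library reached a Tconv library. The fitted log2 differences were -0.90 ± 0.17 (SE, adjusted p = 0.00398) and -0.87 ± 0.15 (SE, adjusted p = 0.00086). Lcp2 (SLP-76), the cytosolic partner of Grap2, was 4534 ± 778 (SD, n = 3) in Treg WT and 5245 ± 688 (SD, n = 4) in Tconv WT, and passed in neither genotype. Skap1, an adaptor for integrin activation, was the adaptor with a positive estimate in both genotypes, 0.29 and 0.14 on the log2 scale, with adjusted p-values of 0.474 and 0.736. Sh2d2a (TSAd), which binds Lck, was lower in Treg KO than in Tconv KO by -0.69 ± 0.19 (SE, adjusted p = 0.0339), although its groups overlapped (3712 to 5268 against 5109.9 to 12165). That call was lost in 8 of 18 alternative analyses, among them those without Treg KO 1 (0.0564), Treg KO 3 (0.133), Treg KO 4 (0.0856), Tconv KO 2 (0.0736), Tconv KO 4 (0.0662) or Tconv KO 5 (0.0627).

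**Figure D3:**
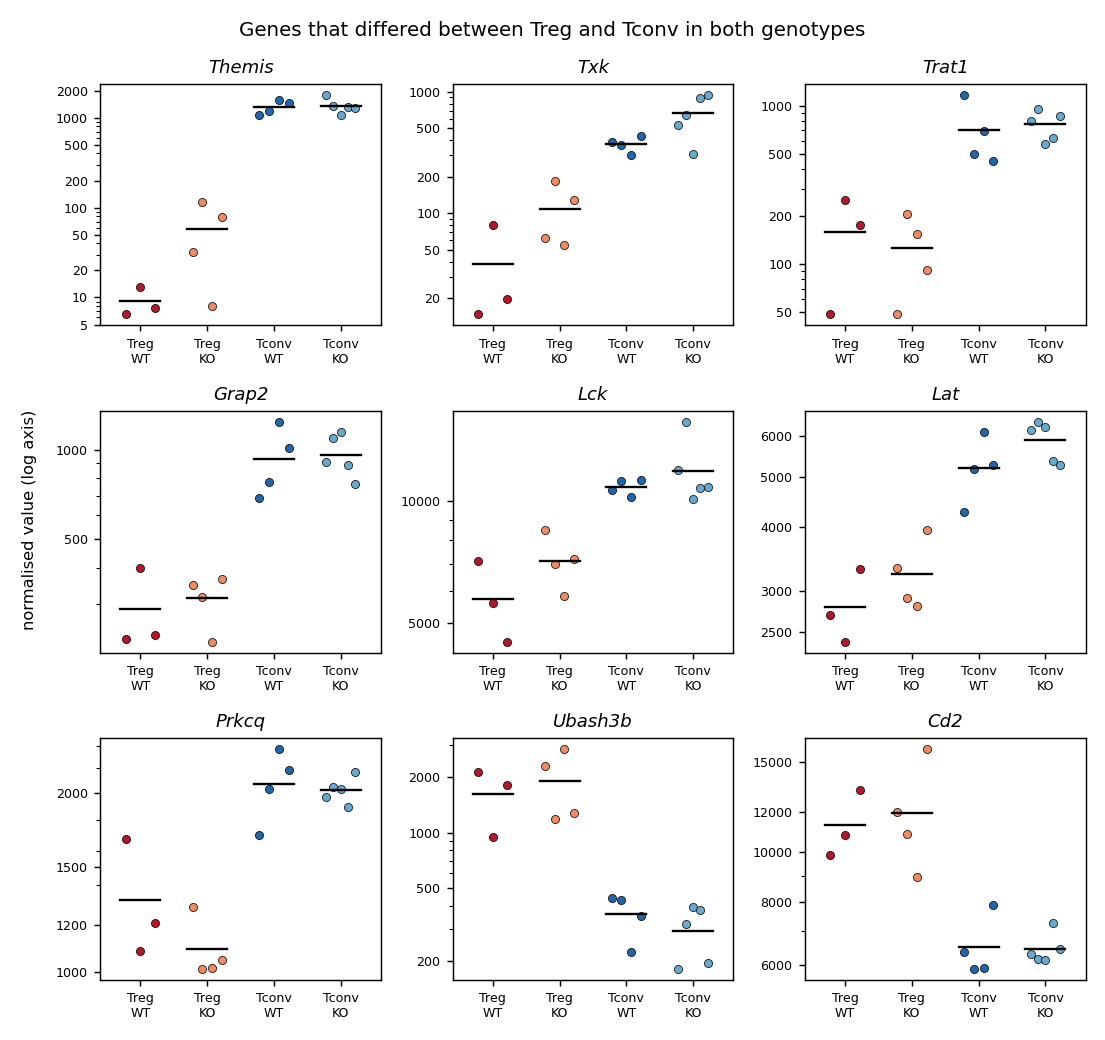
Normalised value (vertical log axis, a scale of its own in each panel) of the 9 genes that passed between Treg and Tconv in both genotypes. Points are libraries and lines group means; Themis, Txk, Trat1, Grap2, Lck, Lat and Prkcq are lower in Treg, and Ubash3b and Cd2 are higher.

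Of the 9 genes that passed in both genotypes, Lat and Prkcq had annotated exons in their upstream window, and Cd2 was not picked for display. The sequence upstream is shown for the other 6, whose window held no annotated exon. Themis, Txk, Trat1, Grap2 and Lck were lower in Treg and Ubash3b higher. Each is the 250 bases before the RefSeq start (GRCm38.p6), read 5′ to 3′ on the gene's strand, with matches to 6 short motifs in capitals. Themis lies at chr10:28668110-28668359 (+ strand), Txk at chr5:72752778-72753027 (-), Trat1 at chr16:48772063-48772312 (-), Grap2 at chr15:80623233-80623482 (+), Lck at chr4:129573642-129573891 (-) and Ubash3b at chr9:41158063-41158312 (-). The Grap2 and Ubash3b windows lie inside the genes' GENCODE M21 bounds, in an intron of the longer models.
Themis: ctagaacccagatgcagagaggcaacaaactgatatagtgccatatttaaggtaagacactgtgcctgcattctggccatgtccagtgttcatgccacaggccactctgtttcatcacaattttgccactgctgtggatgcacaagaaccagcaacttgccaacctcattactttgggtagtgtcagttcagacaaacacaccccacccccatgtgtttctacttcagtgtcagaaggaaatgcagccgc
Txk: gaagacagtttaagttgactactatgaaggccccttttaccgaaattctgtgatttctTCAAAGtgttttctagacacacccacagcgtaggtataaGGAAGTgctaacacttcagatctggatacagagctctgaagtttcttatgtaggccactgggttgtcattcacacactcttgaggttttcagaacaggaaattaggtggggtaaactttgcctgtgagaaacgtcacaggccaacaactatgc
Trat1: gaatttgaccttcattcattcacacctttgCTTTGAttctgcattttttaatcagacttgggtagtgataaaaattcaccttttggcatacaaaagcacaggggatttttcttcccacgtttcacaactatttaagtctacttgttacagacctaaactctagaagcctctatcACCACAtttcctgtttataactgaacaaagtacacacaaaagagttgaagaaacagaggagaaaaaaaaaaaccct
Grap2: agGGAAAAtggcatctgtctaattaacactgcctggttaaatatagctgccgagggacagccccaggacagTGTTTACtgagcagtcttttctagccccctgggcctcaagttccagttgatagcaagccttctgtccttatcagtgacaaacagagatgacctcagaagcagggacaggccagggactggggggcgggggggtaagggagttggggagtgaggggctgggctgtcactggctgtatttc
Lck: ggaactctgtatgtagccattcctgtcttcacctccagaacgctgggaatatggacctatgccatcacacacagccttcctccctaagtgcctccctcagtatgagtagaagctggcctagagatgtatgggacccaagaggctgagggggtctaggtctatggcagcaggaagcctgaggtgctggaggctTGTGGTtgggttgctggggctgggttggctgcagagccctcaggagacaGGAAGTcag
Ubash3b: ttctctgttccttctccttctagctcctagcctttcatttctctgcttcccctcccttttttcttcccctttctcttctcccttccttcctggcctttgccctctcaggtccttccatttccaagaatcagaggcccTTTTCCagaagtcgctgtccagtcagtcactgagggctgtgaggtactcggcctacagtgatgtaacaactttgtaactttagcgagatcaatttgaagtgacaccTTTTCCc

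The motifs were searched on both strands, in the same window of 32851 RefSeq promoters and of 32 of the 41 genes. Each of the 32 genes gave only its most upstream entry. Malt1 and Nfatc1, on chromosome 18, were left out by a filter. The 32851 promoters count every entry, without picking 1 per gene and without that filter, so the percentages are not fully like for like. The ETS motif GGAAGT stood in 14 of the 32 (43.8%) against 19.7% of all promoters, among them Lck and Txk. The TCF/LEF motif CTTTGA stood in 9 (28.1%) against 13.8%, among them Txk and Trat1. The NFAT motif GGAAAA, which shares its GGAA with the ETS motif, stood in 7 (21.9%) against 20.4%, among them Grap2 and Ubash3b. The RUNX motif TGTGGT stood in 3 (Lck, Sla2 and Trat1) against 14.05%, the forkhead motif TGTTTAC in 3 (Grap2, Nfatc2 and Nfatc3) against 3.17%, and the AP-1 motif TGANTCA in 0 against 6.75%. The Themis window held none of the 6 motifs. A match says only that these letters stand in the window.

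Of the 8 effectors further down the pathway, 1 was lower in Treg in each genotype and none was higher. Nfatc1, a calcium-activated transcription factor, was 1217, 1976 and 2381 in Treg WT and 3325, 2786, 3016 and 3110.3 in Tconv WT. That is a log2 difference of -0.77 ± 0.21 (SE, adjusted p = 0.0469), which was lost in 11 of 16 alternative analyses. The adjusted p was highest, 0.225, without Treg WT 1, and the call was also lost without Treg WT 2 (0.0545) and without each of Tconv WT 1 (0.102), Tconv WT 2 (0.067), Tconv WT 3 (0.075) and Tconv WT 4 (0.093). Without the 3 Tconv libraries that stood apart it was 0.175. Nfatc2, its relative, was 209.5, 620.2, 334 and 543 in Treg KO and 883, 1063, 727, 730.1 and 954 in Tconv KO, a difference of -1.14 ± 0.31 (SE, adjusted p = 0.0296). That call was lost without Treg KO 1 (0.126), Treg KO 3 (0.096), Tconv KO 1 (0.061), Tconv KO 2 (0.0731) or Tconv KO 5 (0.0674). The estimate of Nfatc2 in WT mice was -0.53 (adjusted p = 0.51), and that of Nfatc1 in KO mice -0.55 (adjusted p = 0.0928). Plcg1, the phospholipase, had estimates of -0.77 and -0.73 with adjusted p-values of 0.147 and 0.0879. The remaining 5 (Bcl10 and Malt1 of the NF-kappa B branch, the exchange factors Vav1 and Rasgrp1, and Nfatc3) had log2 differences between -0.46 and 0.25.

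Among the 12 phosphatases and other brakes, 1 was higher and 1 lower in Treg WT, and 1 was higher and 2 lower in Treg KO. Ubash3b (Sts-1), a phosphatase that acts on Zap70, was higher in Treg of both genotypes. It was 2121, 947 and 1807 in Treg WT and 441, 433, 225 and 352 in Tconv WT. In KO mice it was 2299.8, 1187, 2847 and 1272 in Treg and 182, 318, 395, 378 and 195 in Tconv. All 7 Treg libraries lay above all 9 Tconv libraries. The Treg mean was 4.49 times the Tconv mean in WT and 6.49 times in KO mice, with log2 differences of 2.13 ± 0.38 (SE, adjusted p = 0.00224) and 2.66 ± 0.33 (SE, adjusted p = 3.29e-05). Its relative Ubash3a (Sts-2) passed in neither, with estimates of -0.15 and -0.04.

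Ptpn6 (SHP-1), a phosphatase that lowers the activity of Lck and Zap70, was 262, 208 and 100.2 in Treg WT and 1560.2, 1282, 989 and 805 in Tconv WT, a difference of -2.67 ± 0.38 (SE, adjusted p = 0.000246). In KO mice it was 279, 405, 713 and 259.8 in Treg and 726, 627, 1146, 766 and 579 in Tconv, and the library Treg KO 3 overlapped the Tconv range. There the difference was -0.97 ± 0.33 (SE) with an adjusted p of 0.0927, and without Treg KO 3 the adjusted p was 0.0275. With a block for the replicate number it was 0.0293. The difference between the 2 comparisons was 1.70 ± 0.50 (SE, adjusted p = 0.928). Ptpn6 shares exonic bases with the antisense transcript Gm20531, whose reads cannot be told apart in libraries without strand.

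Ptpn22, the phosphatase that reverses Lck and Zap70 phosphorylation, was 2607, 2853, 2302 and 1779.6 in Treg KO against 9074, 6916, 6603, 4457 and 5305 in Tconv KO, without overlap (-1.42 ± 0.26, SE, adjusted p = 0.00147). In WT mice the ranges overlapped, 2240.1 to 5333 in Treg and 3133 to 6239.9 in Tconv (-0.47 ± 0.30, SE, adjusted p = 0.479). Dgkz, a diacylglycerol kinase that ends Ras signalling, was 985 ± 141 (SD, n = 4) in Treg KO and 1658 ± 489.7 (SD, n = 5) in Tconv KO (-0.72 ± 0.21, SE, adjusted p = 0.0396). That call was lost in 8 of 18 alternative analyses, among them those without Treg KO 1 (0.13), Treg KO 3 (0.0942), Treg KO 4 (0.0742), Tconv KO 1 (0.0633), Tconv KO 2 (0.104) or Tconv KO 5 (0.0785). Of the rest, the kinase Csk, its membrane anchor Pag1, the ubiquitin ligase Cblb and the adaptors Sla and Sla2 had negative estimates in both genotypes that did not pass. Ptprc (CD45), which both activates and restrains Lck, was 13906 ± 1384 (SD, n = 3) in Treg WT and 13206 ± 335 (SD, n = 4) in Tconv WT. Dgka, the other diacylglycerol kinase, had estimates of 0.13 and 0.22.

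Within families of related genes, the balance was measured as 1 gene's share of the family's summed value per kilobase. Ubash3b made up 57.4% ± 18.7 (SD, n = 3) of Ubash3a and Ubash3b in Treg WT and 22.6% ± 7.86 (SD, n = 4) in Tconv WT. In KO mice the shares were 58.4% ± 11.7 (SD, n = 4) and 18.6% ± 6.90 (SD, n = 5). The Treg and Tconv libraries did not overlap in either genotype. Txk made up 35.3% ± 25.1 (SD, n = 3) of Txk and Tec in Treg WT and 87.6% ± 8.66 (SD, n = 4) in Tconv WT, and 49.7% ± 17.02 (SD, n = 4) and 86.8% ± 7.37 (SD, n = 5) in KO mice, again without overlap. Dgka made up 87.5% ± 2.00 (SD, n = 3) of the Dgka and Dgkz sum in Treg WT and 80.8% ± 2.86 (SD, n = 4) in Tconv WT, and 87.1% ± 1.23 (SD, n = 4) and 77.7% ± 4.04 (SD, n = 5) in KO mice. For these 3 families the two-sided exact permutation p was 0.0571 in WT and 0.0159 in KO mice, the smallest p that this many libraries allow. Adjusted over the 12 shares tested, they were 0.098 and 0.0635, so no share passed. Lck's share of Lck and Fyn was lower in Treg in WT mice (83.6% against 88.2%) and higher in KO mice (88.5% against 85.9%), with exact permutation p-values of 0.0571 and 0.0794. Its Treg and Tconv libraries did not overlap in WT mice (80.0 to 86.8% against 87.0 to 88.9%) but overlapped in KO mice. For Sla within Sla and Sla2, and for Nfatc1 within the 3 NFAT genes, the exact permutation p was at least 0.114.

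**Figure D4:**
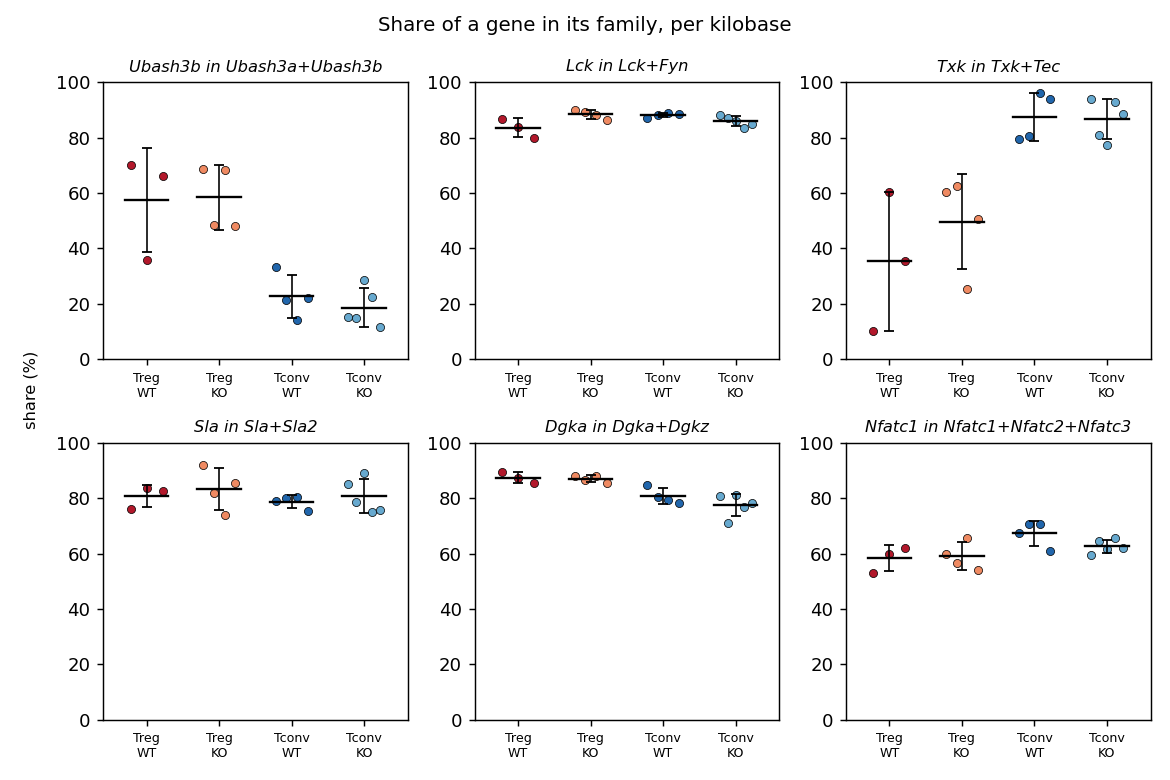
Share (%, vertical axis from 0 to 100) of 1 gene in its family's value per kilobase, in each library. Points are libraries, lines means and bars 1 SD. The Treg and Tconv libraries do not overlap in either genotype for Ubash3b, Txk and Dgka, and in WT mice alone for Lck.

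Beyond the 41 genes, 77 further genes of the same pathway were listed, of which 74 have a row and all 74 were tested. In WT mice 7 (9.46%) were lower and 1 (1.35%) higher in Treg, against 1.98% and 2.2% of all genes. In KO mice 7 (9.46%) were lower and 7 (9.46%) higher, against 2.65% and 4.16%. In both genotypes 6 (8.11%) were lower and 1 (1.35%) higher, against 1.21% and 1.66%. Their median log2 difference was -0.04 in WT and -0.22 in KO mice, against -0.46 and -0.38 for the 41 genes. Of the 74 estimates, 39 were negative in WT and 46 in KO mice. Lax1, a membrane adaptor that restrains receptor signals, was 73.1, 52.5 and 265 in Treg WT and 609, 749.9, 1032 and 416 in Tconv WT. Its log2 differences were -2.71 in WT (adjusted p = 0.00352) and -3.54 in KO mice (adjusted p = 3.48e-05). Ptpn11 (SHP-2) differed by -1.82 and -1.26, and the phosphoinositide 3-kinase subunits Pik3cd and Pik3r1 by -1.37 and -1.30 and by -0.71 and -0.61. The limma adjusted p was 0.0114 and 0.00365 for Pik3cd, and 0.0457 and 0.0359 for Pik3r1. The Pik3r1 call was lost in 10 of 16 alternative analyses in WT and in 11 of 18 in KO mice. Wipf1, which stabilises the actin regulator WASP, differed by -1.08 and -1.54 (limma adjusted p = 0.0301 and 0.000405). Nck2, an adaptor to the cytoskeleton, was higher in Treg, with log2 differences of 2.03 and 1.55 (limma adjusted p = 0.0135 and 0.0208). For these 6 genes, the calls lost without 1 library in WT mice were those of Pik3cd (Treg WT 3, 0.0769), Nck2 (Treg WT 1, 0.0642, or Treg WT 3, 0.0625), and Wipf1 and Pik3r1 (5 libraries each, 0.188 and 0.17 without Treg WT 3). Without the 3 Tconv libraries that stood apart, Pik3cd (0.0689), Wipf1 (0.0662) and Pik3r1 (0.159) also did not pass. In KO mice the calls lost without 1 library were those of Nck2 (Treg KO 1, 0.0539, Treg KO 3, 0.0975, or Tconv KO 4, 0.0546) and Pik3r1 (8 libraries).

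A few markers of other cells differed between Treg and Tconv, at most 2 genes of a list. Of the natural killer list, 4 of 5 genes have a row, 3 were tested and 1, Eomes, was lower in Treg in both genotypes. The list summed to between 6.39 and 51.8 in Treg WT and between 1.95 and 38.4 in Treg KO, against 460 to 1118 in Tconv WT and 479 to 2372 in Tconv KO. Eomes was at least 419 in all Tconv libraries and at most 47.3 in Treg. Ncr1, which defines natural killer cells, had no reads in any Treg WT or Tconv KO library, but was 67.4 in Tconv WT 4 and 8.24 in Tconv WT 1, and at most 6.66 in Treg KO. Tconv WT 4 also held Klrb1c at 347 and Klre1 at 177. Of the type 2 innate lymphoid list, 2 of 6 genes (Il1rl1 and Areg, which Treg of fat also express) were higher in Treg in both genotypes. The rest of that list did not pass. In WT and KO mice the log2 estimates were 0.65 and 1.14 for Rora and -0.66 and -1.88 for Il17rb. For Il5 they were -1.07 and 1.78, and for Il13 -0.02 and 1.06. Rora, Il1rl1 and Areg had the highest means of the list. That list summed to between 4651 and 31508 in Treg WT and between 20846 and 27713 in Treg KO, against 2417 to 10578 in Tconv WT and 3877 to 11879 in Tconv KO. Of 7 macrophage genes 3 were tested, and Cd68 was lower in Treg KO than in Tconv KO (log2 difference -3.48). Csf1r (3.21) and Lyz2 (1.48) had positive estimates there that did not pass. Of 6 stromal and endothelial genes 4 were tested, and Pecam1 was lower in Treg KO (-1.39). Col3a1 (1.31) and Pdgfra (0.10) had positive and Col1a1 (-0.09) negative estimates that did not pass. Of 6 red cell and platelet genes 5 were tested, and Pf4 was lower in Treg WT than in Tconv WT. The macrophage list summed to between 22.7 and 231 in Treg KO and between 38.9 and 199 in Tconv KO, where C1qa had no reads. The stromal list summed to between 169 and 467 in Treg KO and between 448 and 1156 in Tconv KO. The red cell and platelet list summed to between 34.0 and 91.5 in Treg WT, where Ppbp had no reads, and between 104 and 158945 in Tconv WT. The CD8 list (Cd8a and Cd8b1) did not pass and summed to at most 427. No tested gene of the B cell, dendritic cell, neutrophil and mast cell or adipocyte lists passed in either cell-type comparison. The gamma delta T cell list has no gene with a row. The part of these cells in the differences was not tested.

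None of the 41 genes passed the test between KO and WT mice. In Treg KO against Treg WT, 0 of 41 passed, where 0.021% of all genes (3 of 14319) did. In Tconv KO against Tconv WT, 0 of 41 passed, where 0% of all genes did, and the difference between the 2 effects also gave 0. At an unadjusted limma p under 0.05 there were 3, 2 and 4 of the 41 genes in these comparisons, against 890, 781 and 748 of all genes. By limma's voom on the reads recovered from the table, 0 of 41 passed in each, and 649, 1311 and 846 of all genes had an unadjusted p under 0.05. Groups of Treg libraries overlapped for all 41 genes, while 3.35% of all genes lay fully higher in Treg KO and 2.66% fully lower. The median log2 difference of the 41 genes was 0.06 in Treg and -0.00 in Tconv, against 0.08 and 0.02 over all genes.

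The Treg genes with the smallest p were Themis, Txk and Ptpn6, with higher estimates in Treg KO, and Ptpn22, Fyn and Prkcq, with lower ones. Themis was 6.48, 13.2 and 7.62 in Treg WT against 32.3, 115, 8.08 and 77.9 in Treg KO, an estimate of 2.07 ± 0.59 (SE, adjusted p = 0.611). The groups overlapped through Treg KO 3, and without that library Themis passed (adjusted p = 0.0200). The range over the 15 alternative analyses was 0.0200 to 0.967. Txk was estimated at 1.69 ± 0.55 (SE, adjusted p = 0.715) and Ptpn6 at 1.11 ± 0.38 (SE, adjusted p = 0.723). Ptpn22 was estimated at -0.51, Fyn at -0.25 and Prkcq at -0.26, with adjusted p-values of 0.84, 0.848 and 0.865.

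In Tconv, Sh2d2a, Fyn and Ptpn22 had higher and Ptpn6, Bcl10 and Nfatc1 lower estimates in KO mice. Sh2d2a was 4744, 3995, 4202 and 4913 in Tconv WT and 6199, 12165, 5109.9, 7605 and 7152 in Tconv KO. The groups did not overlap, as was true of 0.866% of all genes in that direction and of 0.803% in the other, and the estimate was 0.72 ± 0.19 (SE, adjusted p = 0.717). Fyn also did not overlap (2081 to 2598 against 2645 to 3773), with an estimate of 0.40 ± 0.15 (SE, adjusted p = 0.858). Ptpn22 was estimated at 0.44, Ptpn6 at -0.59, Bcl10 at -0.42 and Nfatc1 at -0.30, and their adjusted p-values were at least 0.931. For the difference between the effects in Treg and Tconv, Ptpn6 (1.70), Themis (2.03) and Bcl10 (0.71) were positive and Fyn (-0.66), Ptpn22 (-0.95) and Sh2d2a (-0.57) negative, with an adjusted p of 0.928 for each. These 2 effects and the 2 cell-type comparisons use the same libraries.

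**Figure D5:**
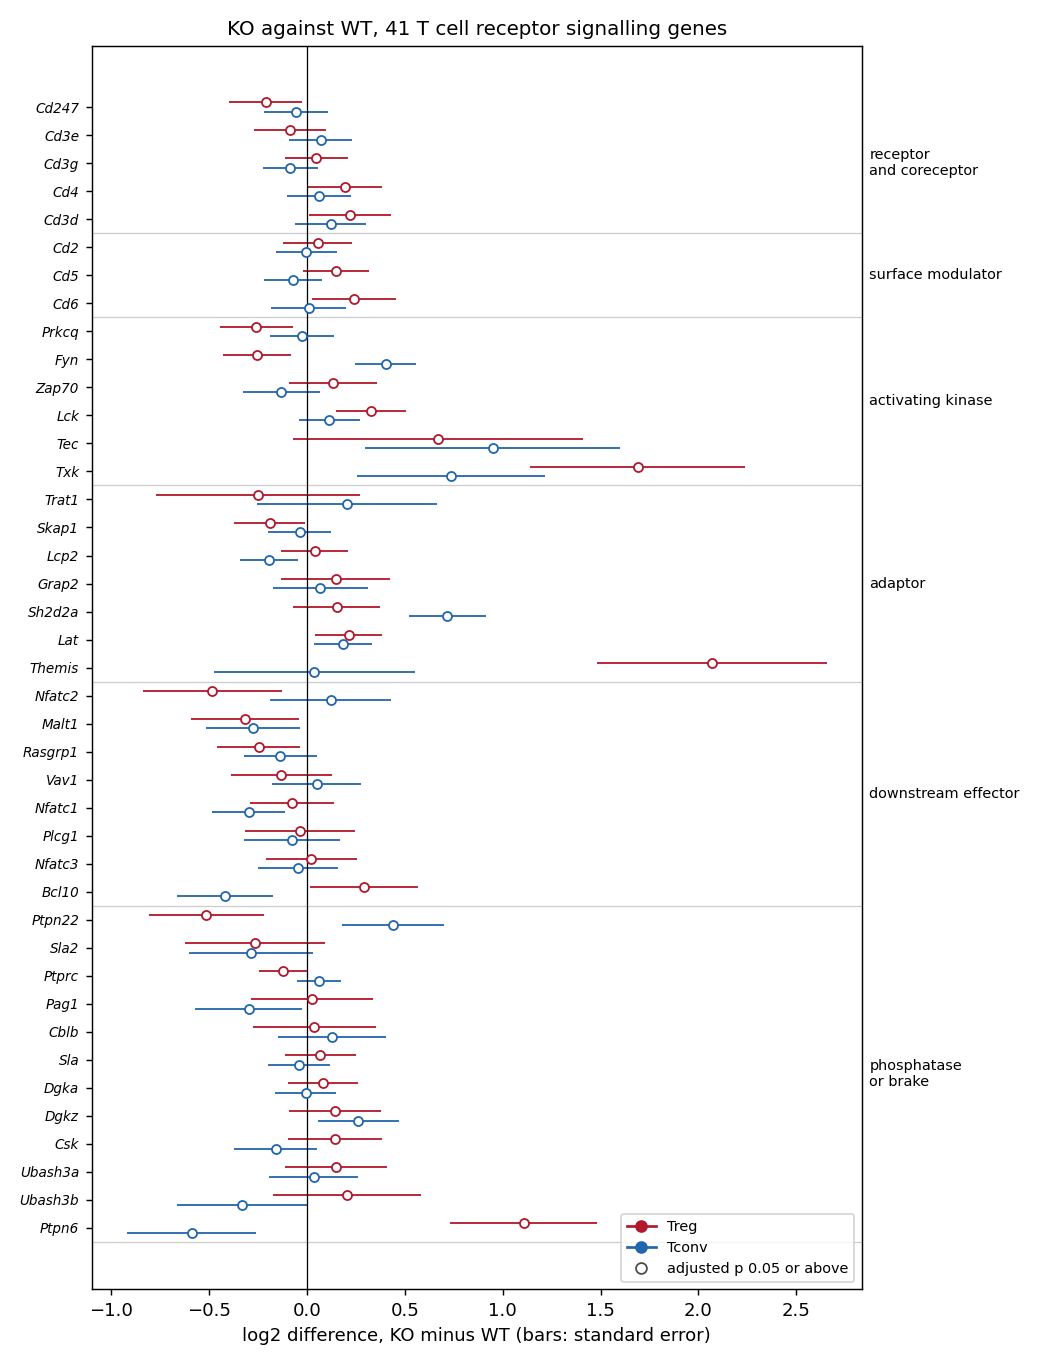
Log2 difference between KO and WT (horizontal axis) for each of the 41 genes, grouped by role, in Treg (red) and Tconv (blue). Points are limma estimates and bars standard errors; all points are open because no adjusted p was under 0.05, and Themis in Treg is the farthest from 0.

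In the mm10 annotation (GENCODE M21) the genes that passed in both genotypes lie on different chromosomes: Themis at chr10:28668360-28883818, Txk at chr5:72695978-72752777, Trat1 at chr16:48730774-48772021, Grap2 at chr15:80572594-80652854, Lck at chr4:129548344-129573641, Lat at chr7:126363824-126369570, Prkcq at chr2:11172108-11301222, Ubash3b at chr9:41011098-41161697 and Cd2 at chr3:101275899-101287939. Each value counts reads over the whole gene. Of the 41 genes, 13 share exonic bases with another annotated gene, 7 of them with a coding one (Cd247, Lcp2, Plcg1, Sla2, Dgka, Dgkz and Nfatc3). Among the 9 genes, Themis overlaps a processed pseudogene on the opposite strand, and Lck and Lat each hold a microRNA.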

How the data were processed

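The deposited table holds 19540 genes in 16 libraries. Its unit is a signal that the authors normalised: low values step by whole reads, so each deposited value is reads divided by a size factor, plus 1 (100% of values under 1000 reads were whole within 0.1 read). Libraries were made from 10 ng of RNA and sequenced on a NextSeq 500, per the labels. The submitters' processing notes name CASAVA 1.8, bcl2fastq2 2.20, kallisto 0.44, Partek 6.6, R 3.3.1, DESeq2 and mm10, without roles. Depth was 3.39 to 56.7 M reads, and 3 reads correspond to a value between 1.38 and 7.09.

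Values were tested as log2(value + 1) with limma 3.58.1 (R 4.3.3, intensity trend, two-sided), in 1 model over all 16 libraries and 5 comparisons, with Benjamini-Hochberg adjustment over the 14319 genes with at least 10 in at least 3 libraries. The script was tested on simulated data. The pseudocount makes fold changes of low genes too small. Family shares were tested by exact permutation. The 41 genes, the other lists and the comparisons were chosen with earlier results of these data known. Members that passed in both cell-type comparisons were described library by library. For deletion effects, the 3 with the smallest p in each direction were named. Of the other pathway genes, at most 6 that passed in both comparisons were named. Alternatives were other pseudocounts (0.1 and 10), filters (none and 50), quantile scaling, fewer groups, a replicate block and leaving out libraries. Analyses by voom and without 3 Tconv libraries were chosen after seeing the data. Sequences came from RefSeq (GRCm38.p6), positions and lengths from GENCODE M21.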

Additional observations from a re-analysis of the deposited data

Results flagged for a closer look

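In 4 of 123 groups of values, 1 library lay far from the others of its group relative to the group's range. By the rule's nominal rate, which was not computed from these data, chance does this in about 1 in 20 groups. Treg WT, with 3 libraries, was not among the groups looked at. Prkcq was 1288 in Treg KO 1, where the other 3 Treg KO libraries lay between 1013 and 1049.9. Csk was 1348 in Treg KO 3, against 827 to 842 in the other Treg KO libraries. Cd5 was 5464 in Treg KO 1, against 4476 to 4642. Cd2 was 7273 in Tconv KO 4, against 6155 to 6446 in the other Tconv KO libraries.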

How the results depend on the processing

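No named call changed direction. The number of the 41 genes higher in Treg WT was 1 without Treg WT 3 and 1 when 3 Tconv libraries (WT 1, WT 3 and KO 3) were left out together, an analysis chosen after seeing the data, since Cd2 no longer passed. Leaving out 1 library gave 1 to 2 genes higher and 7 to 9 lower in WT, 2 to 2 higher and 10 to 14 lower in KO mice. It gave 0 to 1 genes changed in Treg KO against WT (Themis, without Treg KO 3), 0 to 0 in Tconv and 0 to 0 for the difference. Without the 3 Tconv libraries, 6 genes were lower in WT and 14 in KO mice. Over all alternatives the lower genes in KO mice numbered 10 to 18, the highest count with quantile scaling, where Nfatc1 passed (0.0256). By voom, Txk (0.0808), Prkcq (0.0716) and Nfatc1 (0.0695) did not pass in WT mice, nor Dgkz (0.076), Nfatc2 (0.0561) and Sh2d2a (0.0979) in KO mice. With a replicate block the lower genes numbered 7 in WT and 12 in KO mice. Cd247 (0.057) and Nfatc2 (0.0588) no longer passed in KO mice, and Prkcq (0.162) and Nfatc1 (0.113) no longer passed in WT mice. Deviations of same-numbered Treg and Tconv libraries correlated weakly (r 0.0248 to 0.0952). Yet each of the 7 Treg libraries that had a same-numbered Tconv library correlated best with it. The main model did not pair them, and whether the numbers mark a shared animal was not tested. The count of all genes called between Treg WT and Tconv WT was 315 higher and 284 lower, and fell to 148 and 190 without Treg WT 3, 179 and 162 with only the groups compared and 159 and 129 by voom. Between Treg KO and Tconv KO it fell from 595 and 380 to 409 and 242 without Treg KO 3. Tests by edgeR and DESeq2, planned for recovered reads, were not run; voom was the one method applied to those reads. Depth limits genes with few reads, such as Themis in Treg WT (6 to 14 reads).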
